A study of Homo sapiens with 6 samples.

Results

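The surface antigens that myeloma diagnosis and therapy rely on were examined in the established human myeloma line JJN3. They were taken by name: TNFRSF17, TNFRSF13B, CD38, SLAMF7, FCRL5, GPRC5D, CD27, CD28 and MS4A1. All probe sets whose platform annotation names 1 of these genes and no other were used, which gave 20 probe sets of 9 genes, out of 54613 probe sets other than controls and 19775 gene symbols. Total RNA had been hybridised to Affymetrix U133 Plus 2.0 arrays, 6 in number. The cells of 3 arrays had received a short hairpin RNA (shRNA) that targets CKS1B, a partner of cyclin-dependent kinases, and those of the other 3 a non-specific scrambled one, both by a viral vector. All 6 arrays hold the same transduced line, so they show what this line carries and not what myeloma cells of patients carry. Each group has an array A, an array B and an array C, and values are given in that order. An added word, "poly", in the label of the scrambled B array is not explained. Separate cultures are stated for none of them, so the spread behind each p-value may be technical.

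Plasma cells are the antibody-secreting end stage of B cells, and myeloma is their malignancy. On the way from B cell to plasma cell, CD20 (MS4A1) is normally lost, while BCMA (TNFRSF17), which receives the survival ligands APRIL and BAFF, is gained and CD38 becomes abundant. BCMA, CD38, SLAMF7, FCRL5 and GPRC5D are targets of antibodies or engineered T cells in myeloma, and CD28 and CD27 are costimulatory receptors also found on T cells.

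Levels below are MAS5 values on a linear scale, 1 per probe set and array. Differences are the CKS1B shRNA mean less the scrambled mean of log2(value + 16), a scale that understates the change of dim genes. Probe sets differ in how well they bind, so ranks and sums over probe sets describe brightness on the array and not amounts of transcript. Brightness was described by the percentile rank of a probe set among all probe sets of its array. It was also set against a background limit, the 95th percentile of 92 probe sets of 49 genes of unrelated tissues (liver, muscle, skin, retina and others) on the same array. A value under this limit is not shown to be absent. These are bulk RNA samples, in which fewer cells with a transcript and less of it per cell cannot be told apart.

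CKS1B shRNA array B stood apart. Its Pearson correlation with the other arrays was 0.58 to 0.61 on the log2 scale across the probe sets, against 0.88 to 0.96 among the other 5. Its actin 3'/5' ratio, a measure of RNA integrity that is high where 5' sequence is lost, was 12.4, against 1.05 to 2.93 elsewhere. The background limit was 1126 on this array and 367 to 709 on the others. Scrambled array C also read high at the dim end: the median of the background probe sets was 115.0 there, 210.2 on CKS1B shRNA array B and 36.8 to 50.1 on the other 4 arrays. Main results are given with 6 arrays and with 5, that array left out. The targeted gene, CKS1B, read 481, 269 and 828 with its own shRNA, against 8266, 8441 and 7294 with the scrambled shRNA, a difference of -4.02 with 6 arrays (limma adjusted p = 0.246) and -3.63 with 5 (adjusted p = 0.00135).

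Among the 9 antigens, MS4A1, TNFRSF17 and CD28 were bright. MS4A1 had 4 of 4 probe sets above the background limit on all 6 arrays, and it was the only member with any probe set above it on all 6. Of all probe sets, 7.94% lay above the limit on all 6 arrays. Without CKS1B shRNA array B, 6 member probe sets of 3 genes, MS4A1, TNFRSF17 and CD28, were above it on all 5 arrays, where 17.2% of all probe sets were. For CD28 this was 206545_at alone. The other members, CD38, GPRC5D, TNFRSF13B, CD27, FCRL5 and SLAMF7, had no probe set above the limit on all 5. In all, 10 of the 20 probe sets were under the limit on every array. The plot of ranks shows this division.

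**Figure D1:**
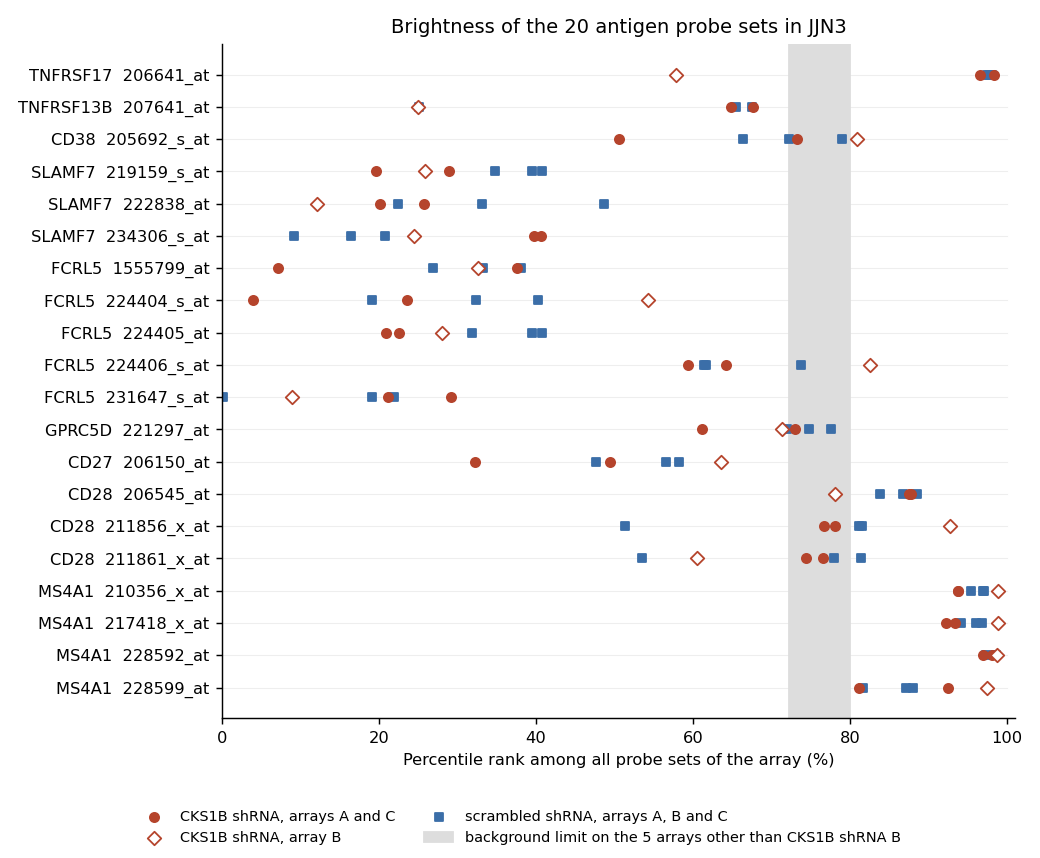
Percentile rank of each of the 20 antigen probe sets among all 54613 probe sets of its array (x axis, %), 1 row per probe set; red points are CKS1B shRNA arrays A and C, the open diamond is CKS1B shRNA array B, and blue squares are the scrambled shRNA arrays. The grey band spans the ranks that the background limit takes on the 5 other arrays, 72.3 to 80.0, and the MS4A1 probe sets lie above it on every array, while those of SLAMF7 lie below 50 throughout.

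MS4A1 is CD20, the tetraspanning B cell antigen that rituximab binds. Through probe set 228592_at it read 5172, 4578 and 7718 with the CKS1B shRNA, against 5426, 7996 and 7216 with the scrambled shRNA. The groups overlapped, and the ranks lay between 96.9 and 98.7 on all 6 arrays. Means were 5823 ± 1668 with the CKS1B shRNA and 6879 ± 1318 with the scrambled shRNA (SD, n = 3 each). The difference was -0.26 (95% interval -1.26 to 0.75, limma adjusted p = 0.938) with 6 arrays and -0.10 with 5 (interval -0.68 to 0.47, adjusted p = 0.913).

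The other MS4A1 probe sets were also above the limit on all 6 arrays, 228599_at by less, with a rank of 81.2 at its lowest, and they did not move alike. Probe set 210356_x_at read 2737, 5193.5 and 2584 with the CKS1B shRNA, against 3610.1, 4914 and 4037 with the scrambled shRNA. Probe set 217418_x_at read 2206, 4929.9 and 2496, against 2929, 4570.2 and 3359.9. On both, CKS1B shRNA arrays A and C lay below every scrambled array, and array B lay above. Their suffix marks probe sets that may bind other transcripts too. Probe set 228599_at read 737, 2897 and 2201 with the CKS1B shRNA, against 791, 1278 and 1266 with the scrambled shRNA, with overlap between the groups. With 5 arrays the differences were -0.64 (SE 0.25) and -0.60 (SE 0.26) for the first 2 of these and 0.23 (SE 0.39) for the third, with limma adjusted p of 0.851, 0.854 and 0.964 over all probe sets. Across the 6 arrays the Pearson correlations between pairs of MS4A1 probe sets ran from -0.11 to 0.97, the highest between the pair with the _x_at suffix, which share most of their pattern.

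TNFRSF17 is BCMA, a small receptor without which long-lived plasma cells are not maintained in mice. It has 1 probe set, which read 8733, 408.5 and 4476 with the CKS1B shRNA, against 6251, 6674 and 4695 with the scrambled shRNA. Arrays A and C of the CKS1B shRNA lay above and below the whole scrambled group, and array B was by far the dimmest of the 6. The means were 4539 ± 4162 with the CKS1B shRNA and 5873 ± 1042 with the scrambled shRNA (SD, n = 3 each). The difference was -1.19 (95% interval -3.53 to 1.15, limma adjusted p = 0.933) with 6 arrays and 0.11 (interval -0.56 to 0.78, adjusted p = 0.923) with 5. With quantile normalization of those 5 arrays it was -0.08, so its direction without array B depended on the normalization. Array B put it at rank 57.8 and the other arrays at 96.5 to 98.4. Of the 1400 probe sets that ranked at 96.5 or higher on those 5 arrays, 9.14% stood at or below 57.8 on array B, and their median rank there was 95.2. The part of the 3'/5' ratio of array B in this value was not tested.

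TNFRSF13B, or TACI, the other receptor of this pair that binds both APRIL and BAFF, was dim. It read 271.8, 154.1 and 253.8 with the CKS1B shRNA, against 247.3, 299.4 and 81.4 with the scrambled shRNA, under the background limit on each array. Its rank was 64.8 to 67.7 on 4 arrays, 25.1 on scrambled array C and slightly lower still on CKS1B shRNA array B. The groups overlapped, with a difference of 0.24 (SE 0.60, limma adjusted p = 0.962) and of 0.47 (SE 0.56, adjusted p = 0.796) without CKS1B shRNA array B.

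CD38, the ectoenzyme that consumes NAD and is bound by daratumumab, lay around the background limit. It read 395.7, 805.5 and 139.6 with the CKS1B shRNA, against 377.2, 660.7 and 365.9 with the scrambled shRNA. It passed the limit on 2 arrays, CKS1B shRNA array A and scrambled array B, and its rank ranged from 50.6 to 80.9. The means were 447 ± 336 with the CKS1B shRNA and 468 ± 167 with the scrambled shRNA (SD, n = 3 each), and CKS1B shRNA array C was the lowest of all. The difference was -0.32 (SE 0.61, limma adjusted p = 0.942) with 6 arrays. With 5 it was -0.88 (95% interval -1.95 to 0.18, adjusted p = 0.559), and the groups overlapped.

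GPRC5D, an orphan G protein-coupled receptor bound by talquetamab, also lay near the limit. It read 386.5, 589.2 and 212.6 with the CKS1B shRNA, against 570.7, 482.9 and 464.9 with the scrambled shRNA. It passed the limit on CKS1B shRNA array A only, where the limit was lowest. The scrambled arrays lay close together (506 ± 56.6, SD, n = 3), and the CKS1B shRNA arrays spread to either side (396 ± 188, SD, n = 3). The difference was -0.45 (SE 0.42, limma adjusted p = 0.933). Without CKS1B shRNA array B, the 2 CKS1B shRNA arrays left read below all scrambled arrays, by -0.78 (95% interval -1.57 to 0.01, adjusted p = 0.515).

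SLAMF7 and FCRL5, an adhesion receptor of the SLAM family bound by elotuzumab and an Fc receptor-like protein of B and plasma cells, were dim. No SLAMF7 probe set read above 160.1 on any array. Probe set 219159_s_at read 24.8, 160.1 and 54.6 with the CKS1B shRNA, against 63.2, 82.5 and 145.1 with the scrambled shRNA, a difference of -0.44 (SE 0.83). Probe set 234306_s_at ran the other way, with 75.6, 150.6 and 95.2, against 12.5, 28.6 and 57.6, all CKS1B shRNA arrays above all scrambled arrays and a difference of 1.39 (SE 0.78). It was the only 1 of the 20 member probe sets whose groups did not overlap with 6 arrays, which held for 7.77% of all probe sets, and its limma adjusted p was 1.0 over all probe sets. Probe sets of the same gene thus pointed in opposite directions at values below the limit.

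Of the 5 FCRL5 probe sets, 4 read between 0.8 and 373.2. The brightest, 224406_s_at, read 174.1, 856.6 and 245.7 with the CKS1B shRNA, against 202.1, 217.1 and 504.4 with the scrambled shRNA. It was high on CKS1B shRNA array B and on scrambled array C, the arrays with the raised dim end, and under the limit on all 6. Its difference was 0.24 (SE 0.65, limma adjusted p = 0.967) with 6 arrays and -0.42 (SE 0.48, adjusted p = 0.792) with 5.

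CD28 and CD27 are receptors for CD80 and CD86 and for CD70. Through its brightest probe set on average, 206545_at, CD28 read 1291.5, 732 and 1302 with the CKS1B shRNA, against 1239.7, 1459 and 908 with the scrambled shRNA. The groups overlapped, and 5 of 6 arrays were above the limit, the exception being CKS1B shRNA array B. The means were 1108 ± 326 with the CKS1B shRNA and 1202 ± 277 with the scrambled shRNA (SD, n = 3 each). The difference was -0.14 (95% interval -0.98 to 0.71, limma adjusted p = 0.965) with 6 arrays and 0.13 (interval -0.46 to 0.72, adjusted p = 0.887) with 5. The other CD28 probe sets, both of the _x_at class, read 521.3 to 1543 and 437 to 508 with the CKS1B shRNA and 211.3 to 801 and 228 to 797.5 with the scrambled shRNA, each lowest on scrambled array C. The first, 211856_x_at, was above the limit on all arrays but scrambled array C. The second, 211861_x_at, was above it on 2, CKS1B shRNA array A and scrambled array B. CD27 was dim, with 115.0, 475.1 and 65.2 with the CKS1B shRNA, against 161.0, 117.7 and 268.4 with the scrambled shRNA. Its difference was -0.12 (SE 0.77, adjusted p = 0.988) with 6 arrays and -0.87 (SE 0.58, adjusted p = 0.632) with 5.

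**Figure D2:**
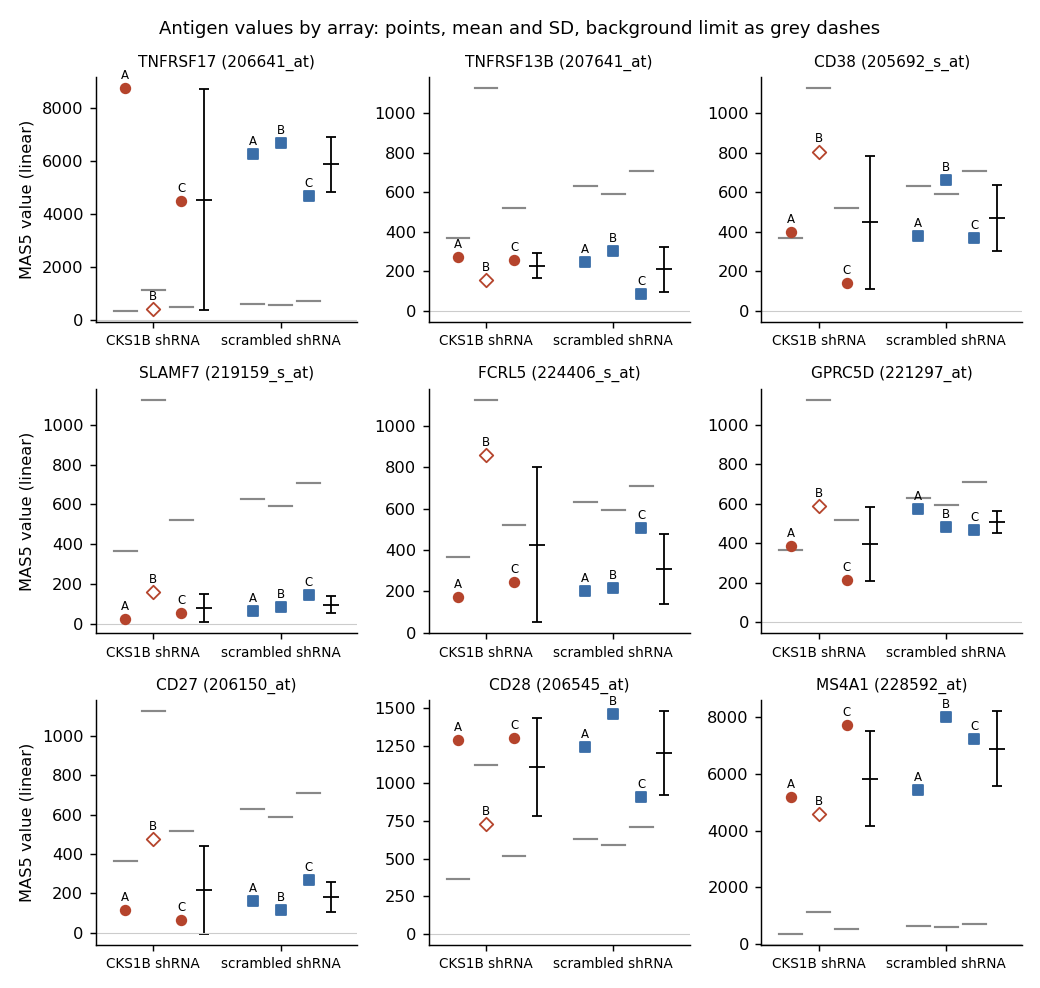
MAS5 values (y axis, linear, a scale of its own in each panel) of the brightest probe set of each antigen, by group; points bear the letter of the array, the open diamond is CKS1B shRNA array B, black bars are the mean and SD of the 3 arrays of a group, and grey dashes are the background limit of each array. MS4A1 stands far above the dashes on every array, TNFRSF17 on all but CKS1B shRNA array B, and SLAMF7 below them on every array.

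With the CKS1B shRNA, no antigen passed the threshold of an adjusted p of 0.05. Of the 9 genes, 8 were bright enough to be tested in the fit over genes, all but SLAMF7. With 6 arrays 0 of the 8 passed, as did 0% of the 12663 genes tested, and with 5 arrays 0 of the 8, against 0.0476% of 12612 genes. At an unadjusted p under 0.05 there were 0 of the 8 with 6 arrays (2.95% of all genes tested) and 0 of the 8 with 5 (9.65%). Over all probe sets 0 of the 20 members passed with 6 arrays (0% of all probe sets) and 0 with 5 (0.0201%). At an unadjusted p under 0.05 these were 0 of the 20 (1.77%) and 2 of the 20 (5.66%), both of MS4A1, 210356_x_at and 217418_x_at, and lower with the CKS1B shRNA. Of the 8 genes, 6 read lower and 2 higher with 6 arrays (median -0.20, against -0.08 over all genes tested), and 5 lower and 3 higher with 5 (median -0.26, against -0.03). The background genes of unrelated tissues that were tested had medians of -0.15 with 6 arrays and -0.37 with 5. Over all probe sets the medians were 0.12 and -0.15. The groups did not overlap for 0 of the 8 genes with 6 arrays (11.3% of all genes tested) and for 2 of the 8, GPRC5D and CD27, with 5 (28.3%).

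The intervals were wide. For MS4A1 and CD28 with 5 arrays they ran from -0.68 to 0.47 and from -0.46 to 0.72, and for TNFRSF17 from -0.56 to 0.78, so a difference of 1 log2 unit lay outside them for these probe sets. With 6 arrays -1 lay inside for MS4A1 and TNFRSF17. For other probe sets of the same genes it lay inside with 5 arrays too, as for MS4A1 210356_x_at (-1.16 to -0.12) and CD28 211856_x_at (-0.89 to 1.10). For TNFRSF13B, CD38, SLAMF7, FCRL5, GPRC5D and CD27 a difference of 1 log2 unit in at least 1 direction lay inside. Among the 20 probe sets, the groups did not overlap in 9 with 5 arrays (21.7% of all probe sets). In 8 of these, of 5 genes, both CKS1B shRNA arrays were the lower (13.7% of all probe sets), and in 1, of SLAMF7, the higher. The 8 were 2 each of MS4A1, SLAMF7 and FCRL5, and 1 each of GPRC5D and CD27. Probe sets of 1 gene are not independent of each other, and apart from those of MS4A1 they lie near or under the limit. The background probe sets read high on scrambled array C, and the part of that array in these counts was not tested.

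**Figure D3:**
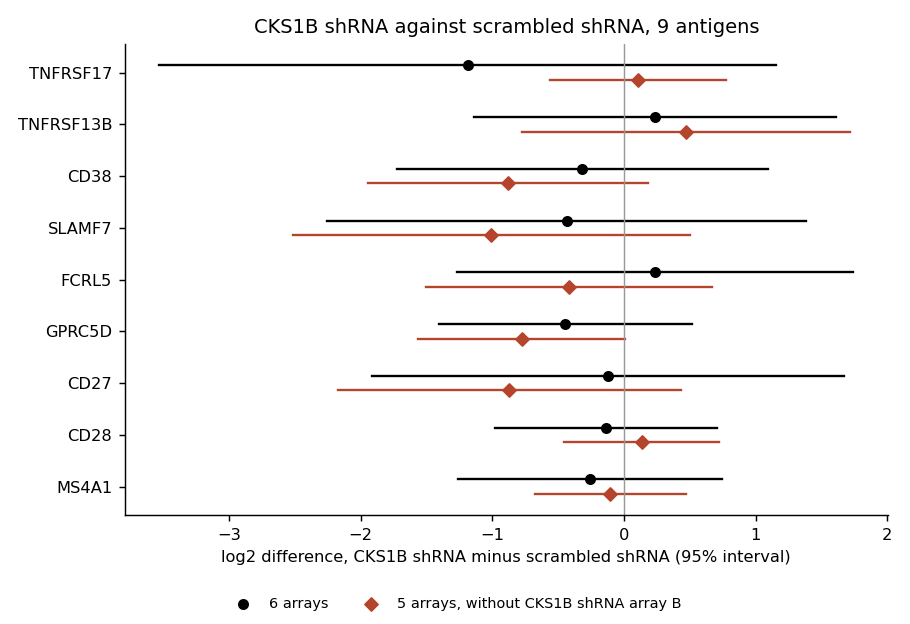
Differences between CKS1B shRNA and scrambled shRNA (x axis, log2(value + 16) scale) for the brightest probe set of each antigen, with the 95% interval from limma; black points use 6 arrays and red diamonds the 5 arrays without CKS1B shRNA array B. Every interval crosses 0, and the interval of TNFRSF17, from -3.53 to 1.15 with 6 arrays, is the widest of those drawn.

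MS4A1, SLAMF7, FCRL5 and GPRC5D belong to gene families, and among the MS4A genes measured only MS4A1 was above the limit on all 6 arrays. Of the other 9, MS4A6A and MS4A14 passed it on 1 array each and 7 on none. MS4A7, a member found in macrophages, read 70.7, 109.7 and 58.2 with the CKS1B shRNA, against 260.5, 290.4 and 616 with the scrambled shRNA. Each CKS1B shRNA array was below each scrambled array (difference -2.02, limma adjusted p = 0.933, and -2.23 with 5 arrays, adjusted p = 0.347), each value under the limit of its array. With 6 arrays the groups did not overlap for 11.3% of all genes tested. MS4A6A read 415.2, 440.7 and 463.0, against 289.2, 226.1 and 417.5 (difference 0.52, adjusted p = 0.933).

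In the SLAM family with its adaptors, 1 of 10 genes, CD48, a ligand of the receptor CD244, was above the limit on all 6 arrays. CD48 read 824, 1668 and 686.5 with the CKS1B shRNA, against 1094, 1029.5 and 1006 with the scrambled shRNA. SLAMF6 (difference 0.36, limma adjusted p = 0.939) and SH2D1A (0.16, adjusted p = 0.948), the adaptor also known as SAP, had the smallest p of this family. Without CKS1B shRNA array B, where SLAMF6 read 1710.8, their differences were -0.18 and 0.33. None of 6 FCRL genes and none of 3 GPRC5 genes beside the members was above the limit on all 6 or on the 5 arrays. FCRLA and FCRL3 had the smallest p of the FCRL genes, with differences of 0.32 (adjusted p = 0.938) and 0.50 (adjusted p = 0.941). Without CKS1B shRNA array B, where FCRL3 read 996, these were 0.66 and -0.51. No GPRC5 relative was bright enough to be tested.

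**Figure D4:**
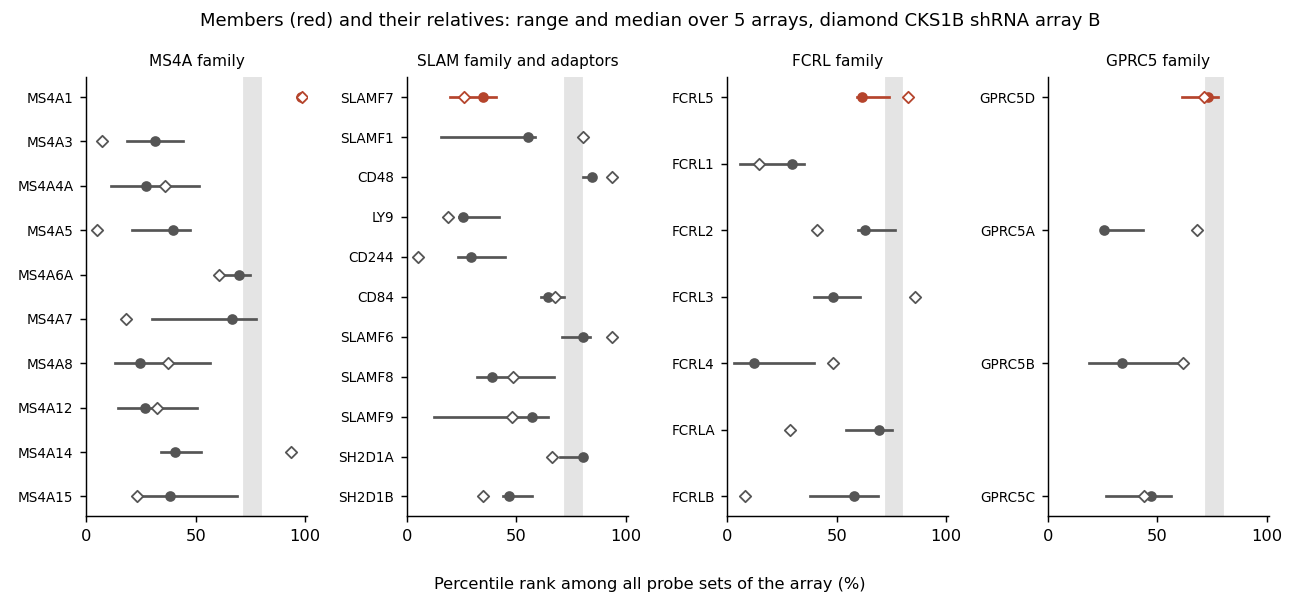
Percentile rank (x axis, %) of 4 antigens in red and of the relatives measured with them in grey, 1 panel per family; lines span the 5 arrays other than CKS1B shRNA array B, points are their median, and diamonds are CKS1B shRNA array B. The grey band is the range of the background limit, 72.3 to 80.0; MS4A1 lies at 96.9 to 98.6 on the 5 arrays, and no other MS4A gene reaches above 80 on them.

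The ligands of these receptors were mostly dim. Of 11 ligands and co-receptors, 0 were above the limit on all 6 arrays and 2 on the 5 arrays, CD70, the ligand of CD27, and SIVA1, which binds the tail of CD27. CD70 read 1107, 711 and 1579.7 with the CKS1B shRNA, against 1039, 818 and 1007 with the scrambled shRNA. TNFSF13B (BAFF) read 33.1, 302.5 and 90.1, against 74.3, 70.6 and 281.8, and TNFSF13 (APRIL) read 22.7, 230.0 and 21.9, against 53.6, 51.3 and 92.2. Of the 6 tested, 3 read higher and 3 lower, with a median of 0.07 and 0 past the threshold. CTLA4 (0.64, limma adjusted p = 0.937) and SIVA1 (-0.49, adjusted p = 0.937, and 0.87 through another probe set with 5 arrays) had the smallest p. CTLA4 read 882.4 on CKS1B shRNA array B. Without that array its difference was -0.31, and it was too dim to be tested in the fit over genes. Of the 5 genes tested with 5 arrays, 2 read higher and 3 lower (median -0.22).

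Of the TRAF adaptors, which carry the signal of TNF receptors such as BCMA, 5 of 6 were named on the array, and TRAF3, which restrains non-canonical NF-kB signalling, was above the limit on all 6 arrays. TRAF1 (difference 1.17) and TRAF5 (-0.48) had the smallest p, with a limma adjusted p of 0.933 each, and 0 of 5 passed (1 higher, 4 lower, median -0.25). TRAF1 read 105.5, 694.8 and 189.6 with the CKS1B shRNA, against 39.8, 171.1 and 134.1 with the scrambled shRNA. Without CKS1B shRNA array B its difference was 0.44, and it was then too dim to be tested in the fit over genes. Of the 4 adaptors tested with 5 arrays, 2 were higher and 2 lower (median -0.18). The gamma-secretase complex cuts BCMA off the cell surface. Of its subunits 5 of 6 were named on the array, and NCSTN and APH1A were above the limit on the 5 arrays. NCSTN, nicastrin, read 1554, 111.2 and 871 with the CKS1B shRNA, against 2197, 2277.5 and 1683 with the scrambled shRNA. Each CKS1B shRNA array was below each scrambled array, and groups did not overlap for 11.3% of all genes tested. CKS1B shRNA array B was by far the lowest, at rank 18.2, against 83.3 to 92.6 on the other arrays. The difference of NCSTN was -1.87 (SE 0.84, adjusted p = 0.933) and, with 5 arrays, -0.80 (adjusted p = 0.486). PSEN2 differed by -0.34 (adjusted p = 0.933), and the 5 subunits had a median of -0.29 (2 higher, 3 lower, 0 past the threshold). Their median with 5 arrays was -0.12 (2 higher, 3 lower). Of the ectoenzymes that work beside CD38 on NAD and adenosine, ENTPD1 (CD39) was above the limit on all 6 arrays (difference -0.40, adjusted p = 0.933), and BST1, the paralog of CD38, read 6.1 to 59.2 on the 5 arrays.

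Among 34 other surface antigens of myeloma, 10 were above the limit on all 6 arrays, CD47, CD59, CD55, CD46, CD74, CXCR4, IL6ST, TFRC, LAMP5 and CCR1, and 17 on the 5 arrays. Of 32 tested, 10 read higher and 22 lower with 6 arrays (median -0.30), and of 33 with 5 arrays 15 higher and 18 lower (median -0.07), 0 past the threshold in either. CD81, which read 13245, 754.9 and 11492 with the CKS1B shRNA, against 9744, 9471 and 9224 with the scrambled shRNA, was low on CKS1B shRNA array B as TNFRSF17 was. CCR10 (-0.82) and CCR1 (-0.84), chemokine receptors, had the smallest p, both with a limma adjusted p of 0.933.

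Most plasma cell markers were above the limit on all 6 arrays. Beside the B cell antigen MS4A1, none of the listed markers of other blood cells was. Of 7 plasma cell markers, 5 were above the limit on all 6 arrays, IRF4, PRDM1, XBP1, JCHAIN and POU2AF1, and MZB1 also on the 5. The summed level of the 7 was 55258 to 71625 with the CKS1B shRNA, against 48319 to 53016 with the scrambled shRNA. Its brightest parts were JCHAIN (17620, 19880 and 37717, against 15690, 13131 and 16370) and POU2AF1 (15392, 30311 and 17267, against 12371, 11471 and 14602). MZB1 ran the other way, with 1178, 442.5 and 2080, against 2655, 3429 and 2403. In these genes the groups did not overlap, as held for 11.3% of all genes tested, and in the other markers they did. MZB1 (difference -1.43) and XBP1 (-0.75) had the smallest p (limma adjusted p = 0.933 each), and 0 of 7 passed (4 higher, 3 lower, median 0.33). Without CKS1B shRNA array B, 3 were higher and 4 lower (median -0.0031). SDC1, or CD138, missed the limit only on scrambled array C through its brighter probe set, which read 1019.6, 1684 and 669.8, against 1242, 828 and 551.6. Of 11 B cell markers measured beside MS4A1, among them CD79A, CD22 and PAX5, 0 were above the limit on all 6 or on the 5 arrays. Their summed level was 1918 to 2892 with the CKS1B shRNA, against 1834 to 4347 with the scrambled shRNA. CD79B (-1.20) and CD79A (-0.54) had the smallest p (adjusted p = 0.933 each), and of 6 tested 1 was higher and 5 lower (median -0.35). With 5 arrays 2 were higher and 4 lower (median -0.34).

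CD28 and CD27 are also T cell genes, and of 10 T cell markers 0 were above the limit on all 6 or on the 5 arrays. Their summed level was 7397 on CKS1B shRNA array B and 1315 to 1752 on CKS1B shRNA arrays A and C, against 1710 to 2430 with the scrambled shRNA. On array B, CD3D, CD3E, CD5 and LCK read 1219, 1235, 1126.4 and 1381, all past its limit of 1126, CD5 only just. TRAT1 (-0.86) and CD8A (-0.84) had the smallest p (limma adjusted p = 0.933 each, 5 of 7 tested higher, 2 lower, median 0.58). Without array B, 3 of the 6 tested were higher and 3 lower (median 0.0007). None of 6 NK cell markers, 9 myeloid markers, 4 erythroid markers or 6 stromal markers measured was above the limit on all 6 arrays, and ACTA2 was on the 5. Among those tested the medians were -0.33 with 1 NK cell marker tested (PRF1), -0.24 with 2 myeloid (S100A8 and ITGAM), -0.02 with 2 erythroid (HBB and AHSP) and -0.58 with 4 stromal (ACTA2 and COL1A2 of smallest p), and 0 passed. In the same order they were -1.12, -0.20, -0.20 and -0.37 with 5 arrays. Among the background genes KRT10 was above the limit on all 6 arrays. Of 17 tested 7 were higher and 10 lower (median -0.15), with AQP2 (-1.58) and LCT (-1.03) of smallest p (adjusted p = 0.933 each). Of 16 tested with 5 arrays 6 were higher and 10 lower (median -0.37).

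The genes whose log2 values over the 6 arrays were most like those of MS4A1 through 228592_at were GINS4 (Pearson r = 0.98), CEBPZOS (0.98) and QTMAN (0.98). This is a description over 6 arrays that share their scaling, and in each of these genes CKS1B shRNA array B was the lowest. GINS4, a subunit of the replicative helicase, read 919.6, 583 and 1858 with the CKS1B shRNA, against 971, 2612 and 2019.9 with the scrambled shRNA.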

How the data were processed

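Per the submitters' processing notes the authors used MAS5, and the deposited values are linear intensity values; the MAS5 version is not given in the sources used here. Of 54675 probe sets, 62 controls were left out. Genes came from the platform annotation by Entrez identifier, with current symbols from RefSeq (GRCh38.p14), and no coordinates were used. On the scale log2(value + 16), probe sets with a mean under 7.34, the median, were dropped, the brightest probe set of each gene was kept, and the groups were compared across all genes with limma 3.58.1 in R 4.3.3 (lmFit, eBayes with trend, no covariates, Benjamini-Hochberg). Member probe sets left out by this were read from the same fit over all probe sets. The number of arrays limits the precision. Figures were drawn with matplotlib 3.10.9.

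The members, lists, tests and alternatives were chosen with earlier results of these data known. The genes named were the members, CKS1B, the 2 of smallest p of each list (none passed, apart from CKS1B in the fit of 5 arrays), and the 3 genes most like each member above the background limit on all 6 arrays; others were named after their values were seen. The background list held 54 genes, 49 of them measured. The alternatives were other pseudocounts (1 and 64), filters, normalizations, weights, probe set rules, a block, other background limits and leaving out arrays. Whether the letters pair the arrays could not be told. Deviations from the group means correlated at 0.40 for letter A, -0.08 for B and -0.08 for C. Between arrays of different letters the correlations ran from -0.37 to 0.26. Deviations within a group cancel out, so those of its arrays are not independent.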

Additional observations from a re-analysis of the deposited data

How the results depend on the processing

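No member passed an adjusted p of 0.05 in limma under any of the 21 alternatives. With 6 arrays the count of genes past it was 0 in every setting except array weights, where it was 4. On leaving out 1 array it was 0 to 6, 6 being without CKS1B shRNA array B. Without that array it was 2 with quantile normalization, and 11 probe sets passed in the fit over all probe sets. The count of genes was 1 without both arrays of letter B. With the letter as a replicate block it stayed 0 with 6 arrays and was 100 without CKS1B shRNA array B. Whether the letters pair the arrays is not known.

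On leaving out 1 array GPRC5D and MS4A1 kept their direction and the other 7 antigens did not. GPRC5D was lower under all 21 alternatives (-0.81 to -0.08), but several of these could not move its difference. It stayed at -0.45 with other filters, eBayes without trend, the mean of its only probe set and the replicate block on 6 arrays. TNFRSF17 was at 0.11 without CKS1B shRNA array B, also over all probe sets, and at 0.21 without letter B or with the replicate block and without that array. With quantile normalization and without that array it was at -0.080, and leaving out 1 array gave -2.08 to 0.11. FCRL5 was at -0.42 without that array, also over all probe sets, -0.595 without letter B or with the replicate block on those 5 arrays, -0.29 with quantile normalization of those 5 and -0.11 with array weights, with up to 0.68 on leaving out 1 array. CD28 was at 0.13 without that array, also over all probe sets, 0.29 without letter B or with the replicate block on those 5 arrays, 0.15 with quantile normalization of those 5 and 0.14 with the mean of its probe sets; leaving out 1 array gave -0.32 to 0.13, with 0.015 without scrambled array B. MS4A1 was at 0.014 without letter B or with the replicate block on those 5 arrays. With the block on 6 arrays every member kept its difference, which the balanced layout fixes in advance. On the 5 arrays the block leaves scrambled array B without a partner. It then gives the same difference as leaving out letter B and is no separate check. TNFRSF13B was at -0.0089 with quantile normalization of 6 arrays, and on leaving out 1 array ranged from -0.29 (without scrambled array C) to 0.56. On leaving out 1 array CD38 ranged from -0.88 to 0.32 (without CKS1B shRNA array C), CD27 from -0.87 to 0.43 (without CKS1B shRNA array C) and SLAMF7 from -1.01 to 0.047 (without CKS1B shRNA array A), with 0.090 from the mean of its probe sets. The causes were not tested.

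Of the 20 probe sets, 4 were above the background limit on all 6 arrays. The count was 1 against the highest background probe set (MS4A1), 11 against the median of each array (which added TNFRSF17, CD38, FCRL5, GPRC5D and CD28), and 4 to 6 on leaving out 1 array. Values under the limit have no firm order. A limit without KRT10 and the count without letter B, 4 and 6, were added after the data were seen. The fit over all probe sets without CKS1B shRNA array B was not planned beforehand either.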

Other observations

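The next protein-coding genes in RefSeq order, named without coordinates, were read for each antigen. MS4A5 and MS4A12, on either side of MS4A1, read 31.2 to 78.6 and 38.1 to 203.7 with the CKS1B shRNA, and 28.4 to 139.6 and 19.0 to 167.4 with the scrambled shRNA, under the background limit on every array. CTLA4, next to CD28, was under the limit on every array, as was BST1 next to CD38. ETV3 next to FCRL5 and HEBP1 next to GPRC5D were above it on all arrays but CKS1B shRNA array B.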
